A study of Mus musculus with 6 samples.

Results

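The 10 genes described here encode the MHC class I antigen presentation pathway of the mouse: the classical heavy chains H2-K1 and H2-D1, their light chain B2m, the peptide transporter subunits Tap1 and Tap2, the loading factor Tapbp, the immunoproteasome catalytic subunits Psmb8, Psmb9 and Psmb10, and the transactivator Nlrc5. They were listed by name and function, by a rule that uses no measured value, though earlier results of these data were known at the time. All 10 were found among the 57132 genes of the count table and passed the filter on low counts. RNA-seq was carried out on differentiated immortalized podocytes, the epithelial cells that cover the capillaries of the kidney glomerulus, with 3 WT samples (Col4a3+/+) and 3 AS samples (Col4a3-/-, a model of Alport syndrome). The study asked how the AS podocytes differ from the WT podocytes in their transcriptome.

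Both lines were labelled as derived from male mice aged 8 weeks, and the samples of both had no treatment. The lines were made from Col4a3 knockout mice crossed with transgenic H-2Kb-tsA58 mice (CBA/Ca x C57BL/10). The transgene, a thermolabile T antigen that immortalizes cells, is driven by the promoter of the H2-K1 gene in its b form, so cells of this kind are grown with interferon gamma at a permissive temperature. The labels give growth medium with 20 U/mL interferon gamma at 33 °C for both lines, followed by differentiation over 14 days at 37 °C. They do not state whether interferon gamma was present during differentiation, whereas the study's methods state that it was absent then and give another concentration and another number of days. Each genotype was represented by 1 line, so genotype and line cannot be told apart, and the 3 samples of a line were not labelled as separate derivations, so p-values measure only the spread between these samples.

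MHC class I molecules show peptides from the inside of a cell to CD8 T cells and natural killer cells. Proteasomes cut cytosolic proteins, the TAP transporter moves the peptides into the endoplasmic reticulum, and tapasin helps to load them onto a heavy chain paired with beta-2 microglobulin, after which the complex travels to the cell surface. Interferon gamma raises almost the entire pathway, through IRF1 and through NLRC5, which acts on a promoter module that class I genes and B2m share. Kidney epithelial cells carry class I molecules at rest and more of them under inflammation.

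The heavy chain genes are among the most variable genes between mouse strains. C57BL strains, from which the reference genome was built, carry the H2b haplotype and CBA/Ca mice the H2k haplotype. The study's methods do not give the strain of the Col4a3 knockout mice crossed to make the lines, so a further haplotype is possible. Reads from another haplotype can align less often to the reference, and the haplotype of each line is not given in the sources used here. For every gene of the H2 complex, a difference in level and a difference in how well the reads of each line aligned therefore cannot be told apart. B2m on chromosome 2, and Psmb10 and Nlrc5 on chromosome 8, lie outside the complex.

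WT podocytes held 1087 ± 170 CPM (counts scaled to a common library size) of Col4a3 and AS podocytes 68.8 ± 12.2 CPM (SD over 3 samples each), so the deleted gene followed the labels. The samples held 45417221 to 54290968 counts, and 3 counts in a sample corresponded to 0.0545 to 0.0666 CPM. WT replicate 1 stood apart from the other 2 WT samples: the chi-square per degree of freedom between samples was 43.0 and 45.2 for its 2 pairs and 9.06 for WT replicates 2 and 3, while the AS pairs lay between 17.1 and 20.6. Results that rest on that sample are therefore given with and without it. Of the podocyte markers, Nphs1 did not exceed 0.473 CPM, and the 4 that were tested were all lower in AS podocytes (Synpo at 803 ± 44.2 and 526 ± 30.8 CPM, Wt1 at 20.6 ± 5.28 and 2.50 ± 0.928 CPM, Podxl at 14.1 ± 6.20 and 7.25 ± 0.781 CPM, SD, n = 3 each). Podxl was at 21.2 CPM in WT replicate 1 but at 11.3 and 9.84 CPM in WT replicates 2 and 3. Its log2 fold change, AS over WT, was -0.97 over all samples and ran from -1.17 to -0.55 with 1 sample left out. Podxl lost its call when AS replicate 3 was left out (-0.88, adjusted p = 0.0651, edgeR). The leucocyte markers Cd3e and Adgre1 had no count, Ptprc did not exceed 0.390 CPM, and the 8 markers of leucocytes together amounted to 11.2 to 15.0 CPM in WT and 5.11 to 7.02 CPM in AS samples, most of it Csf1r. The part of these marker differences in the class I results was not tested. The tubule marker Lrp2 was at 274 ± 30.9 CPM (WT) and 255 ± 55.6 CPM (AS) (SD, n = 3 each), above Wt1 and Podxl. Cubn, another tubule marker, was at 5.31 ± 0.609 and 5.40 ± 0.484 CPM, and neither passed the test. The other tubule markers listed were all but absent: Slc34a1 did not exceed 0.0217 CPM, and Slc22a6 and Umod had no count. In bulk samples, fewer cells of a type and less RNA per cell cannot be told apart.

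Of the 10 genes, 3 differed between the lines. Tap1 rose 1.38-fold, Psmb10 1.34-fold and Tapbp 1.14-fold in AS podocytes, while the heavy chains, B2m, Tap2, Psmb8, Psmb9 and Nlrc5 did not pass the test (Nlrc5 passed in some alternative fits, described with that gene). The log2 fold change, AS over WT, is written log2FC and given with its standard error (SE). In edgeR's quasi-likelihood test over 16263 genes, 3 of the 10 genes passed an adjusted p of 0.05 (40.1% of all genes tested did). All 3 were higher in AS podocytes, where 20.4% of all genes were higher and 19.6% lower. The median log2FC of the 10 genes was 0.20, against 0.01 over all genes tested. Of the 10, 0 passed with a change over 2-fold, beside 11.2% of all genes (4.59% higher and 6.59% lower). The AS samples all lay above the WT samples for 3 of the 10 genes and below them for 0, where 26.4% of all genes lay above, 26% below and 52.3% in either direction. Without WT replicate 1, 5 of the 10 genes passed, with H2-D1 and Nlrc5 added, beside 40.4% of all genes in that fit.

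**Figure D1:**
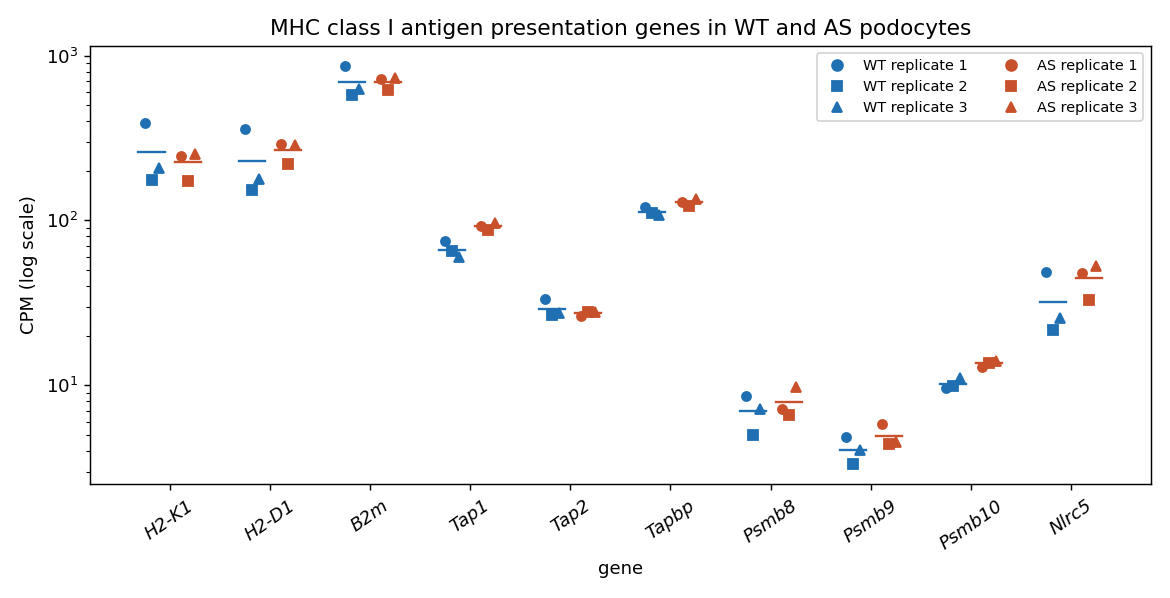
CPM (vertical axis, log scale) of the 10 genes in each of the 6 samples, WT on the left and AS on the right of each gene, with a bar at the mean of the 3 samples. The AS samples lie above all WT samples for Tap1, Tapbp and Psmb10, and WT replicate 1 lies above the other WT samples for every gene but Psmb10.

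Measured as CPM per kilobase of the principal transcript (RPKM), the genes spanned a wide range of levels. B2m was the most abundant, with means over 3 samples of 802 ± 179 RPKM (SD) for WT and 804 ± 71.5 RPKM for AS podocytes. H2-K1 followed at 160 ± 71.3 and 139 ± 27.4 RPKM and H2-D1 at 109 ± 52.7 and 127 ± 19.4 RPKM, and the sample values of both heavy chains overlapped with each other but not with those of B2m. Tapbp came next, at 39.1 ± 2.26 and 44.4 ± 2.05 RPKM, then Tap1 at 22.5 ± 2.52 and 31.1 ± 1.60 RPKM, and these did not overlap with their neighbours. Psmb10 (7.77 ± 0.568 and 10.4 ± 0.430 RPKM) overlapped with Tap2 (8.47 ± 1.07 and 7.93 ± 0.284 RPKM), and Nlrc5, Psmb8 and Psmb9 formed an overlapping group between 2.47 and 6.96 RPKM at the bottom. Nlrc5, Psmb8 and Psmb9 were thus the least abundant of the pathway in both lines.

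H2-K1 (ENSMUSG00000061232.17, chromosome 17), the heavy chain whose promoter also drives the immortalizing transgene, was at 391, 177 and 209 CPM in WT replicates 1 to 3 and at 247, 174 and 254 CPM in AS replicates 1 to 3. The groups overlapped, with WT replicate 1 the highest and AS replicate 2 the lowest of all samples. AS over WT, its log2FC was -0.20 ± 0.26 (SE; adjusted p = 0.580, edgeR's quasi-likelihood test). Without WT replicate 1 it turned to 0.22, with an adjusted p of 0.232 in the same test.

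H2-D1 (ENSMUSG00000073411.13, chromosome 17), the other classical heavy chain, was at 356, 152 and 179 CPM in WT and 293, 219 and 286 CPM in AS replicates 1 to 3. All 3 AS samples lay above WT replicates 2 and 3 and below WT replicate 1. Over all samples its log2FC was 0.21 ± 0.27 (SE; edgeR, adjusted p = 0.571). Leaving out WT replicate 1 gave 0.68 (edgeR, adjusted p = 0.000859), the only fit in which it passed.

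B2m (ENSMUSG00000060802.9, chromosome 2), the invariant light chain, was at 866, 579 and 624 CPM in WT and 722, 621 and 732 CPM in AS replicates 1 to 3. The AS samples again fell inside the range of the WT samples. Its log2FC of 0.0045 ± 0.14 (SE) had an adjusted p of 0.983 in edgeR's quasi-likelihood test, and was 0.20 when WT replicate 1 was left out (adjusted p = 0.0560), -0.11 when WT replicate 2 was, and below 0 in 4 of the 6 fits of this kind. No stretch of 50 bases of its transcripts is shared with another gene, whereas 9.63% of such stretches are shared for H2-K1 and 12.8% for H2-D1, mostly with each other and with H2-Q genes.

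Because counting can split reads between such relatives, all 23 heavy chain genes of the H2 complex found in the table were also summed. The sum was 892, 391 and 459 CPM in WT and 650, 474 and 661 CPM in AS replicates 1 to 3, of which H2-K1 and H2-D1 made up 81.7% to 84.6%. The groups overlapped, with a log2 ratio of means of 0.04 (exact permutation test, two-sided, p = 0.9, where the smallest p possible with 3 against 3 is 0.1). Leaving out WT replicate 1 gave a log2 ratio of 0.49 and leaving out WT replicate 2 gave -0.18, and the ratio was below 0 in 4 of the 6 cases.

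The balance of both heavy chains did separate the lines. The CPM ratio of H2-K1 to H2-D1, a measure chosen after the values were seen, was 1.10, 1.16 and 1.17 in WT and 0.843, 0.794 and 0.888 in AS replicates 1 to 3. The groups did not overlap, and WT replicate 1 was the WT sample nearest to the AS samples. The means of 3 samples were 1.14 ± 0.0380 (SD) for WT and 0.842 ± 0.0468 for AS podocytes, and the exact permutation test, two-sided, gave the smallest p it can, 0.1. As both genes differ between haplotypes, a difference in alignment cannot be told apart from a difference in level here. The ratio of H2-D1 to B2m overlapped between the lines (0.263 to 0.411 in WT, 0.353 to 0.405 in AS samples), as did that of H2-K1 to B2m (0.305 to 0.451 and 0.280 to 0.347).

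The stretch of 250 bases before the start site is shown for H2-K1, H2-D1 and B2m, which encode the chains of the class I molecule. They are among the 8 of the 10 genes that moved together between samples of a line, as described next. The sequences are from RefSeq (GRCm38.p6), which held 8 of the 10 genes, and each is written 5′ to 3′ on the gene's strand. They are the reference sequence, not that of the lines. Capitals mark matches to 4 motifs searched on both strands of 300 bases around the start site: the interferon-stimulated element (GAAA, any 2 bases, GAAA), the Y box CCAAT, the CRE core TGACG and a loose kappa B pattern (GGG, any 5 bases, CC), some of which overlap.
H2-K1, chr17:34000348-34000597, minus strand: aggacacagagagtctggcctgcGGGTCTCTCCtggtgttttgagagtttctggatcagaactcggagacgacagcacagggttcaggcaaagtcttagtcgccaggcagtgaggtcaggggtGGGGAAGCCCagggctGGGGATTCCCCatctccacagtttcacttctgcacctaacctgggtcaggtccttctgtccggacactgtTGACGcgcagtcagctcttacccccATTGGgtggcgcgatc
H2-D1, chr17:35262844-35263093, plus strand: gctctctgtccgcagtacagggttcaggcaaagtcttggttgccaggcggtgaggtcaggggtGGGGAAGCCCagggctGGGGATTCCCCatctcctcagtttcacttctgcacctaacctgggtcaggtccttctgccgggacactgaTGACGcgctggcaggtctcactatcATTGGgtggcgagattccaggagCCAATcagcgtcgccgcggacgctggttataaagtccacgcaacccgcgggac
B2m, chr2:122147437-122147686, plus strand: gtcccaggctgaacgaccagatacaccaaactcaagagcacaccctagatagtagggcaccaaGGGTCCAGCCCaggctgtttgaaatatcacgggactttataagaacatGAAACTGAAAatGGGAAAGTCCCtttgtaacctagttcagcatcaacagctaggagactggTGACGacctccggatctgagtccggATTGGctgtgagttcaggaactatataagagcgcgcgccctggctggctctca

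At the best offset without gaps, the sequences shown for H2-K1 and H2-D1 were identical at 166 of 190 aligned bases (87.4%). Both held GGGGAAGCCC, GGGGATTCCCC, TGACG and ATTGG in the same order. For another H2-K1 start site of the same source, not shown, 169 of 204 bases (82.8%) were identical, and its stretch also held CCAAT. B2m held the interferon-stimulated element GAAACTGAAA at positions -139 to -130 from its start site, next to the kappa B match GGGAAAGTCC, and TGACG and ATTGG further on. Of 32851 promoter windows of the same length, 3.44% held the interferon-stimulated element, 37.4% the Y box, 20.8% the CRE core and 50.8% the kappa B pattern. Among the 8 genes in the table the exact string used for the interferon-stimulated element was found in B2m alone. The Y box was found in 6 and the CRE core and the kappa B pattern in 5 each. Looser forms of the interferon-stimulated element were not searched, so its absence from the other genes holds for this string only. Such matches describe letters and do not show that a factor was bound.

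Within each line the genes of the pathway spread unequally, a pattern noticed after the values were seen. WT replicate 1 was the highest WT sample for 9 of the 10 genes, all but Psmb10, beside 37.5% of all genes tested. AS replicate 2 was the lowest AS sample for 8 of the 10, beside 33.5%, and both held for 8 of the 10, beside 16.8%. The highest WT sample exceeded the lowest 2.21-fold for H2-K1, 2.34-fold for H2-D1, 2.23-fold for Nlrc5 and 1.49-fold for B2m, where the median of all genes was 1.20. It was 1.74-fold for Psmb8, 1.45-fold for Psmb9 and 1.25-fold for Tap1 and Tap2, but 1.14-fold for Psmb10 and 1.11-fold for Tapbp, both under that median. The constitutive subunits Psmb5, Psmb6 and Psmb7 did not share the wide spread either. The median over these 3 constitutive subunits was 1.06, and WT replicate 1 was the highest for 0 of the 3. For podocyte markers, WT replicate 1 was the highest WT sample in 4 of the 4 tested and AS replicate 2 the lowest AS sample in 1. Wt1 was at 25.8, 15.3 and 20.7 CPM and Podxl at 21.2, 11.3 and 9.84 CPM in WT replicates 1 to 3. The highest WT sample exceeded the lowest only 1.12-fold for Synpo and 1.04-fold for Nphs1. The part of these markers in the spread of the class I genes was not tested.

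WT replicate 1 was also the highest WT sample and AS replicate 2 the lowest AS sample for the Q-region heavy chains H2-Q4 and H2-Q7, which are nonclassical class I molecules. H2-Q4 was at 74.3, 25.7 and 28.9 CPM in WT and 38.5, 22.5 and 45.04 CPM in AS replicates 1 to 3. H2-Q7 was at 10.9, 2.61 and 2.45 CPM in WT and 3.95, 1.71 and 6.32 CPM in AS samples. Of the 12 heavy chains tested, H2-K1 and H2-D1 included, WT replicate 1 was the highest WT sample for 11 and AS replicate 2 the lowest AS sample for 9. Socs1, the feedback inhibitor of interferon signalling, was at 10.4, 3.46 and 4.57 CPM in WT and 8.33, 4.32 and 4.12 CPM in AS replicates 1 to 3, with AS replicate 3 the lowest, while Irf1, at 18.3, 16.9 and 18.99 CPM, spread less. Socs1 was the only 1 of 23 tested class I regulators to spread over 2-fold between WT samples, beside 11.7% of all genes. WT replicate 1 was the highest WT and AS replicate 2 the lowest AS sample for 2 of the 23 (8.7%), beside 16.8% of all genes.

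**Figure D2:**
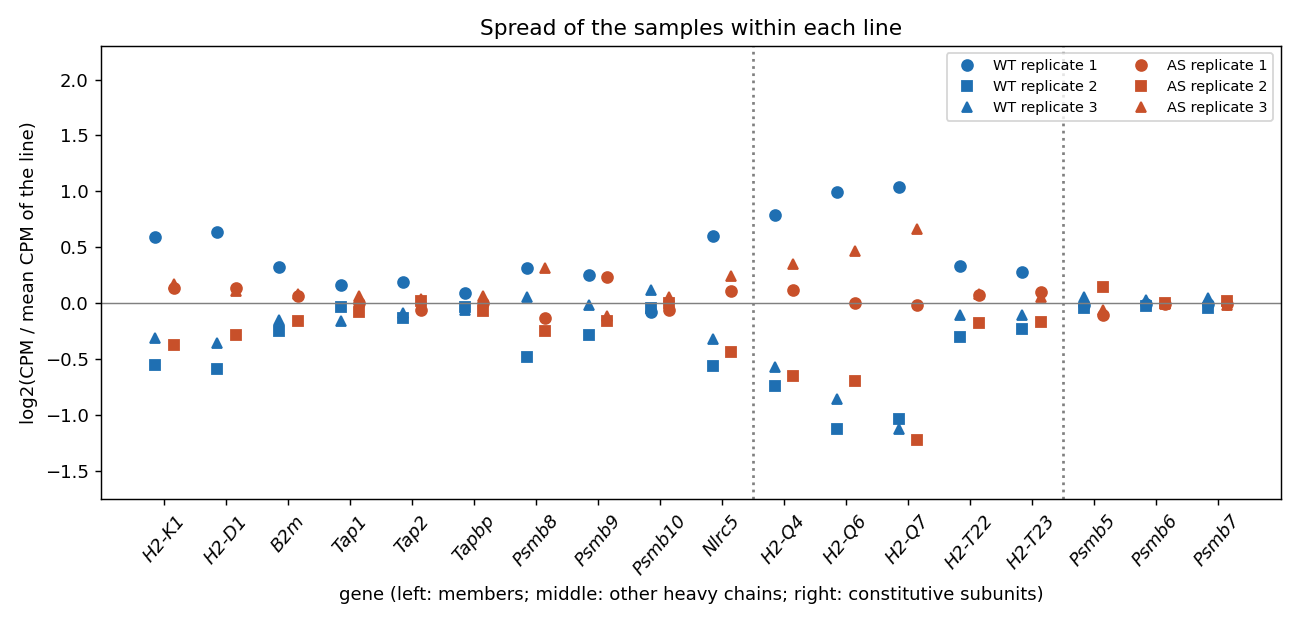
Log2 of each sample's CPM over the mean CPM of its own line (vertical axis) for the 10 genes, 5 other heavy chains and the 3 constitutive catalytic subunits; blue is WT, orange is AS, and the shape gives the replicate. WT replicate 1 (blue circles) lies highest for H2-K1, H2-D1, Nlrc5 and the Q-region genes, AS replicate 2 (orange squares) lies lowest for the same genes, and Psmb5, Psmb6 and Psmb7 stay close to 0.

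Tap1 showed the clearest difference of the 10 genes. Tap1 (ENSMUSG00000037321.18, chromosome 17), a subunit of the peptide transporter, was at 74.5, 65.2 and 59.8 CPM in WT and 92.4, 87.0 and 96.4 CPM in AS replicates 1 to 3. Every AS sample lay above every WT sample. The log2FC of 0.47 ± 0.08 (SE; edgeR's quasi-likelihood test, adjusted p = 0.00171) passed in each of the 6 fits that left out 1 sample, from 0.39 to 0.56.

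Tap2 (ENSMUSG00000024339.13, chromosome 17), the other subunit of the same transporter, was at 33.4, 26.6 and 27.5 CPM in WT and 26.2, 27.7 and 28.0 CPM in AS replicates 1 to 3. The groups overlapped, and the log2FC was -0.10 ± 0.09 (SE; edgeR, adjusted p = 0.444). The difference between the changes of both subunits was not tested. Only 0.442% of the stretches of 50 bases of Tap1 and 0.655% of those of Tap2 occur in another gene.

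Tapbp (ENSMUSG00000024308.16, chromosome 17) encodes tapasin, which holds the heavy chain at the transporter until a peptide is bound. It was at 121, 110 and 109 CPM in WT and 129, 123 and 135 CPM in AS replicates 1 to 3, without overlap. Its log2FC of 0.19 ± 0.06 (SE; edgeR, adjusted p = 0.0382) was the smallest of the 3 that passed. It no longer passed without WT replicate 2, WT replicate 3, AS replicate 1 or AS replicate 3, with adjusted p-values from 0.106 to 0.142 and log2FC values from 0.15 to 0.18 in those fits.

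**Figure D3:**
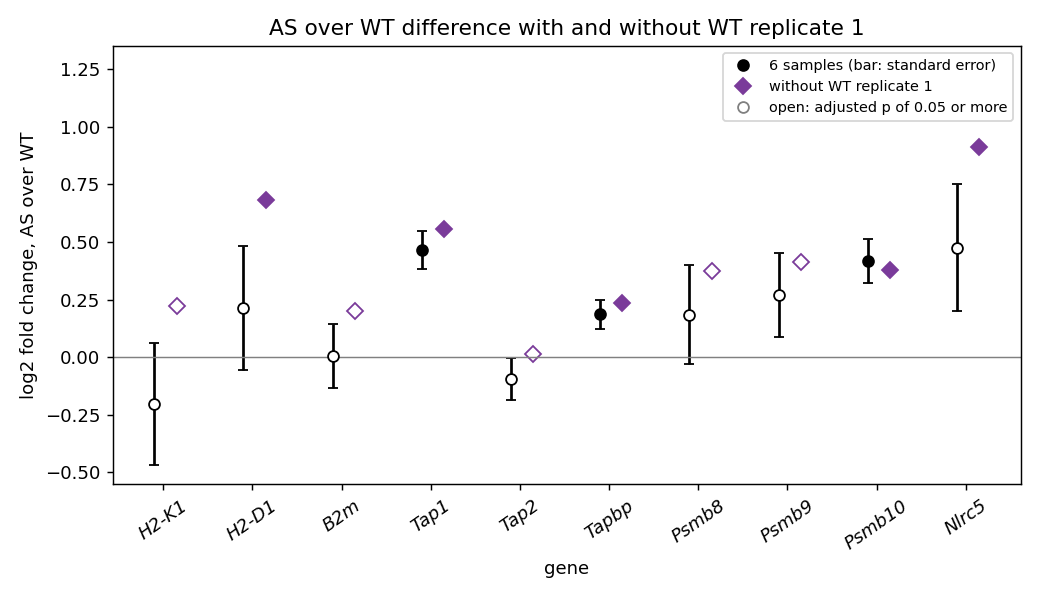
Log2 fold change, AS over WT (vertical axis), of the 10 genes from edgeR with all 6 samples (circles, bars are standard errors) and without WT replicate 1 (diamonds); filled symbols have an adjusted p under 0.05. Leaving out WT replicate 1 moves H2-K1 from -0.20 to 0.22, H2-D1 from 0.21 to 0.68 and Nlrc5 from 0.48 to 0.91.

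The immunoproteasome subunits replace the constitutive catalytic subunits of the proteasome core when they are made, Psmb8 in place of Psmb5, Psmb9 in place of Psmb6 and Psmb10 in place of Psmb7. Of the 3, Psmb10 alone passed the test, and the differences between the 3 changes were not tested. Psmb10 (ENSMUSG00000031897.10, chromosome 8) was at 9.65, 9.87 and 11.03 CPM in WT and 13.01, 13.6 and 14.1 CPM in AS replicates 1 to 3, without overlap. Its log2FC was 0.42 ± 0.10 (SE; edgeR's quasi-likelihood test, adjusted p = 0.00740), and it passed in each of the 6 fits that left out 1 sample.

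The genes of chromosome 8 as a whole were higher in AS podocytes, with a median log2FC of 0.32 over 616 genes, 88.3% of them above 0. With that median removed the log2FC of Psmb10 was 0.09. The part of this shift in the difference was not tested. The medians of chromosome 17, at 0.02, and of chromosome 2, at -0.02, were close to 0.

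Psmb8 (ENSMUSG00000024338.16, chromosome 17) was at 8.66, 4.98 and 7.22 CPM in WT and 7.19, 6.65 and 9.83 CPM in AS replicates 1 to 3. The groups overlapped widely, with a log2FC of 0.18 ± 0.22 (SE; edgeR, adjusted p = 0.539). Psmb9 (ENSMUSG00000096727.4, chromosome 17) was at 4.83, 3.33 and 4.03 CPM in WT and 5.79, 4.40 and 4.56 CPM in AS replicates 1 to 3, and it too overlapped. Its log2FC was 0.27 ± 0.18 (SE; edgeR, adjusted p = 0.270).

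The constitutive partners had smaller standard errors of the log2FC (0.05 to 0.08) and did not pass. The AS samples lay below all WT samples for Psmb6 and Psmb7, as they did for 26% of all genes tested. Psmb5 was at 24.8 ± 0.885 CPM (WT) and 25.2 ± 2.42 CPM (AS) (SD, n = 3 each). Psmb6 was at 87.7 ± 1.83 and 85.5 ± 0.371 CPM and Psmb7 at 87.8 ± 2.72 and 82.3 ± 1.23 CPM, with log2FC values of 0.02, -0.04 and -0.09 and adjusted p-values from 0.173 to 0.837 (edgeR).

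Per kilobase of transcript, the immunoproteasome subunit was the minor member of each pair in every sample. Psmb10 was 8.88%, 9.29% and 9.72% of the sum of Psmb10 and Psmb7 in WT and 12.3%, 12.6% and 13.3% in AS replicates 1 to 3, without overlap, a difference of 3.46 percentage points (exact permutation test, two-sided, p = 0.1, the smallest it can give). Psmb8 was 16.3%, 10.2% and 13.4% of its pair in WT and 14.5%, 11.6% and 18.3% in AS samples, which overlapped (exact permutation test, p = 0.6). Psmb9 was 3.16%, 2.23% and 2.58% in WT and 3.86%, 2.93% and 3.06% in AS samples, which overlapped as well (exact permutation test, p = 0.3). These shares do not depend on library scaling but do depend on the transcript lengths used.

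**Figure D4:**
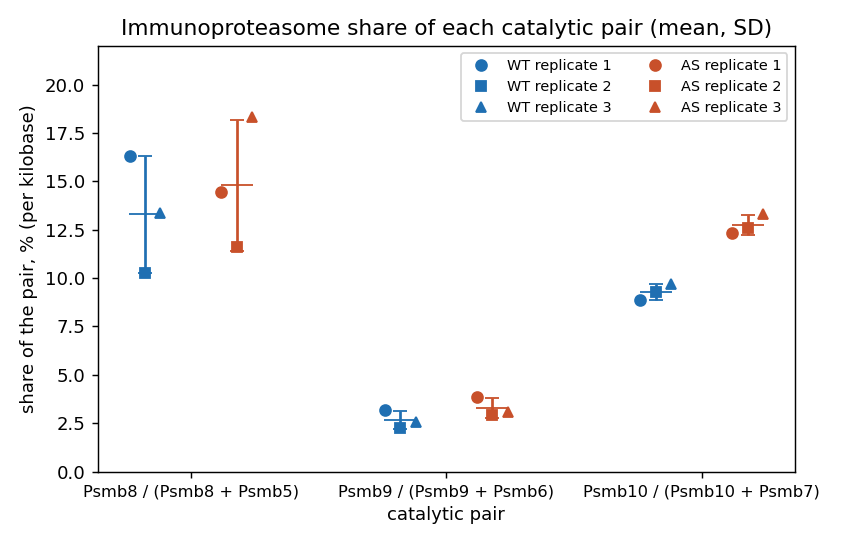
Share of the immunoproteasome subunit in each catalytic pair (vertical axis, percent, from CPM per kilobase) in the 3 WT and 3 AS samples, with the mean and SD. The AS samples lie above the WT samples for Psmb10 alone, at 12.3% to 13.3% against 8.88% to 9.72%, and overlap with them for Psmb8 and Psmb9.

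Psmb9 and Tap1 are transcribed away from each other. The 225 bases between their start sites are shown because this stretch lies before both a gene that rose, Tap1, and a gene that did not pass the test, Psmb9. The sequence is from the same RefSeq table (GRCm38.p6), on the strand of Tap1, with capitals as above.
Psmb9 and Tap1, chr17:34187331-34187555, plus strand: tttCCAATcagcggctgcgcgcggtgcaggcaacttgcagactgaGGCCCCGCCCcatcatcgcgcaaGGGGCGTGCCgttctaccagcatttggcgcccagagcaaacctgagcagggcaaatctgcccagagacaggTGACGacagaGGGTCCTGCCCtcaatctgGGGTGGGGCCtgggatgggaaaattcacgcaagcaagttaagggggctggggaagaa

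It held CCAAT near the start site of Psmb9, TGACG at -86 to -82 from that of Tap1 and several matches to the kappa B pattern, and no match to the interferon-stimulated element. All these matches count for both genes, since both windows cover the stretch.

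Nlrc5 (ENSMUSG00000074151.15, chromosome 8), the transactivator of the class I genes, was at 48.6, 21.7 and 25.6 CPM in WT and 48.0, 32.9 and 52.7 CPM in AS replicates 1 to 3. The AS samples all lay above WT replicates 2 and 3, while WT replicate 1 lay among them. Over all samples the log2FC was 0.48 ± 0.28 (SE; edgeR's quasi-likelihood test, adjusted p = 0.204). It was 0.91 without WT replicate 1 (adjusted p = 0.00130, edgeR), 0.53 with the replicate number as a block (adjusted p = 0.0275) and 0.48 with no filter on low counts (adjusted p = 0.00107), and passed in these 3 fits only. With the chromosome 8 median removed from the fit with all samples it was 0.15, and the part of the chromosome's shift in this value was not tested.

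Of 23 tested factors that act on class I promoters or carry interferon signals, 8 rose and 3 fell in AS podocytes (47.8%, median log2FC 0.16), beside 40.1% of all genes tested, 20.4% higher and 19.6% lower. Jak2, a kinase of the interferon gamma receptor, was at 57.0 ± 5.19 CPM (WT) and 79.3 ± 3.23 CPM (AS) (log2FC 0.47, adjusted p = 0.000858, edgeR). The receptor chain Ifngr1 was at 76.0 ± 7.45 and 105 ± 5.04 CPM (0.47), the Y box binding subunit Nfyb at 27.9 ± 2.59 and 40.5 ± 3.08 CPM (0.54) and the interferon-responsive factor Irf1 at 18.1 ± 1.08 and 24.02 ± 1.50 CPM (0.41). The others that rose were Irf2, Stat2, Atf1 and Rela, with log2FC values from 0.16 to 0.49. With the chromosome median removed, Jak2 was at 0.28, Ifngr1 at 0.14, Nfyb at 0.22, Stat2 at 0.17, Irf2 at 0.0040, Atf1 at 0.0 and Rela at -0.034, while Irf1 was at 0.44.

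Jak1, the partner kinase of Jak2, fell from 201 ± 2.31 to 163 ± 5.57 CPM (log2FC -0.30, adjusted p = 0.00165, edgeR). The type I interferon receptor chain Ifnar1 (158 ± 4.98 and 128 ± 1.59 CPM, -0.31) and Nfkb1 (173 ± 14.3 and 141 ± 5.42 CPM, -0.29) fell as well. With the chromosome median removed, Jak1 was at -0.14, Ifnar1 at -0.24 and Nfkb1 at -0.20. Rfx5, a subunit of the factor through which Nlrc5 meets DNA, was at 28.8 ± 2.91 and 29.1 ± 0.198 CPM (0.02, adjusted p = 0.886, edgeR). Ciita, the class II counterpart of Nlrc5, was not tested and lay between 0.0217 and 0.155 CPM.

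Among the heavy chains of the H2 complex other than H2-K1 and H2-D1, H2-T23 showed the largest change. Of 24 such genes listed, 21 were in the table, 16 had any count and 10 were tested, of which 3 rose and 0 fell (30%, median log2FC -0.21), beside 40.1% of all genes tested and 20.4% higher. H2-T23, which encodes Qa-1 and presents signal peptides to natural killer cell receptors, was at 5.76, 4.06 and 4.42 CPM in WT and 18.8, 15.6 and 18.3 CPM in AS replicates 1 to 3. This 3.70-fold difference (log2FC 1.89, standard error 0.15, adjusted p = 1.17e-05, edgeR's quasi-likelihood test) was far larger than the spread within either line.

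H2-T22, a ligand of gamma delta T cells, was at 26.6, 17.1 and 19.7 CPM in WT and 33.8, 28.3 and 33.8 CPM in AS replicates 1 to 3 (log2FC 0.60, adjusted p = 0.0101, edgeR). H2-M5 rose at a low level, from 0.284 ± 0.154 to 0.820 ± 0.0793 CPM, and it no longer passed without WT replicate 2 (1.13), AS replicate 2 (1.53) or AS replicate 3 (1.44), at adjusted p-values from 0.0501 to 0.0722 (edgeR). Relatives share sequence with these genes: 13.6% of the stretches of 50 bases of H2-T23, 34.5% of those of H2-T22 and 21.8% of those of H2-Q4 occur in another gene. The promoter of H2-T23 is shown because its change was the largest of all heavy chains tested. It has no match to TGACG or the kappa B pattern in the window, and holds TTTCTCTTTC, the interferon-stimulated element read on the other strand, at -124 to -115.
H2-T23, chr17:36032702-36032951, minus strand: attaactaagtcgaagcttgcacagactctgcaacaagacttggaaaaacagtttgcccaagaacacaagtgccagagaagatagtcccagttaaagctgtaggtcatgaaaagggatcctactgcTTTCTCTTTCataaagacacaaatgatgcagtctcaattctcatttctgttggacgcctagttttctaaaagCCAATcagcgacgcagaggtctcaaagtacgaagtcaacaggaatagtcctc

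Of 9 tested class I-like genes outside the H2 complex, which encode other partners of B2m or ligands of the natural killer receptor NKG2D, 1 rose and 4 fell (55.6%, median log2FC -0.48), beside 40.1% of all genes tested, 20.4% higher and 19.6% lower. The NKG2D ligand Ulbp1 fell from 38.4 ± 6.73 to 15.3 ± 3.46 CPM (log2FC -1.33, adjusted p = 0.000316, edgeR), while the related ligand Raet1e rose from 4.17 ± 0.904 to 6.69 ± 0.509 CPM (0.69, adjusted p = 0.0116, edgeR). The partners of B2m that fell were Fcgrt, which recycles IgG and albumin, from 81.0 ± 0.526 to 60.8 ± 1.79 CPM (-0.41), Mr1, which shows vitamin B metabolites to T cells, from 44.4 ± 3.20 to 31.9 ± 1.22 CPM (-0.48), and Hfe, a regulator of iron uptake, from 2.82 ± 0.133 to 1.91 ± 0.128 CPM (-0.56). Hfe no longer passed in 5 of the 6 fits that left out 1 sample, all but that without WT replicate 1 (-0.60 to -0.51, adjusted p-values from 0.0543 to 0.0828, edgeR), and with the chromosome median removed Raet1e was at 0.36. B2m itself, at 690 ± 154 and 692 ± 61.5 CPM, lay far above them all in both lines.

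Of the 10 chaperones and peptidases of class I assembly, all tested, 3 rose and 2 fell (50%, median log2FC -0.02), by small amounts, beside 40.1% of all genes tested. Ganab, which trims glycans on new heavy chains, rose from 385 ± 12.9 to 447 ± 21.3 CPM (log2FC 0.21, adjusted p = 0.0196, edgeR). Lnpep, a peptidase of endosomes (0.24), and Uggt1, a glucosyltransferase of quality control (0.18), rose as well. Erap1, the peptidase that trims peptides to the length class I molecules bind, fell from 37.0 ± 1.75 to 31.6 ± 1.37 CPM (-0.23, adjusted p = 0.0215, edgeR), and the vesicle coat subunit Sec13 fell by 0.21 on the log2 scale. Each of these calls was lost in some fits that left out 1 sample: Erap1 without WT replicate 3 or AS replicate 2, Ganab without WT replicate 2, WT replicate 3 or AS replicate 1, Lnpep and Sec13 without any of WT replicates 2 and 3 and AS replicates 1 and 3, and Uggt1 in every fit but that without WT replicate 1 (adjusted p-values from 0.0556 to 0.112, edgeR). With the chromosome median removed Ganab was at 0.02 and Sec13 at -0.0054.

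Of 9 tested proteasome activators and assembly factors, 2 rose and 0 fell (22.2%), where 20.4% of all genes tested were higher and 19.6% lower. Psme1, a subunit of the PA28 cap that interferon gamma induces, was at 30.2, 27.2 and 28.8 CPM in WT and 36.8, 38.0 and 36.3 CPM in AS replicates 1 to 3 (log2FC 0.37, adjusted p = 0.00186, edgeR). Its partner Psme2 was at 36.5 ± 1.87 and 39.9 ± 1.24 CPM (0.13, adjusted p = 0.142, edgeR). The assembly factor Psmg3 rose from 1.91 ± 0.208 to 2.81 ± 0.413 CPM, but of the fits that left out 1 sample it passed only in that without AS replicate 1 (0.48 to 0.63, adjusted p-values from 0.0629 to 0.139, edgeR, in the other 5).

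**Figure D5:**
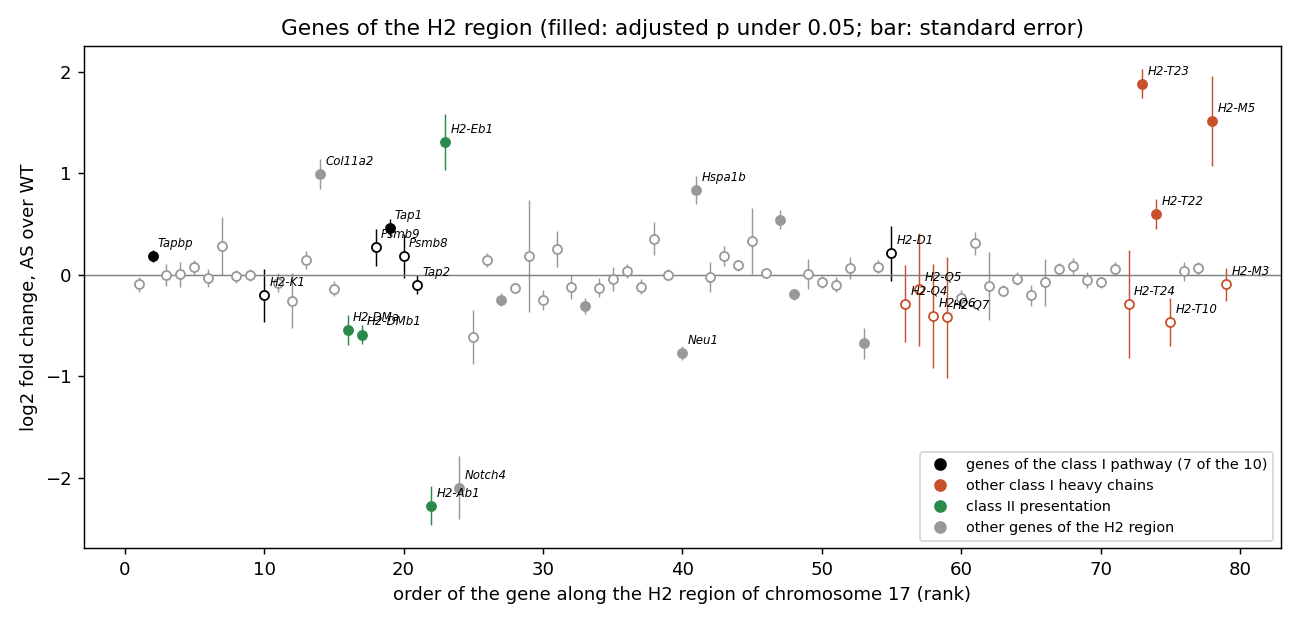
Log2 fold change, AS over WT, with standard errors (vertical axis) of the tested genes of the H2 region in their order along chromosome 17 (horizontal axis, rank), coloured by group; filled points have an adjusted p under 0.05. H2-T23 at 1.89, H2-M5 at 1.52 and H2-Eb1 at 1.31 lie at the top and H2-Ab1 at -2.28 at the bottom, while H2-K1 at -0.20 and H2-D1 at 0.21 lie near 0.

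Of the 10 genes, 7 lie in the H2 region of chromosome 17, among genes of other function. Of 58 such neighbours tested, 3 rose and 6 fell (15.5%, median log2FC -0.02), beside 40.1% of all genes. Neu1, a lysosomal sialidase that lies between the heavy chains, fell from 49.9 ± 3.31 to 29.3 ± 1.25 CPM (-0.77, adjusted p = 3.4e-05, edgeR), and the receptor Notch4 from 2.55 ± 0.847 to 0.594 ± 0.137 CPM (-2.10). Atp6v1g2, a subunit of the proton pump, fell as well (-0.68). The heat shock gene Hspa1b (0.84), the collagen gene Col11a2 (1.00) and Ddah2 (0.54), which breaks down methylated arginine, rose.

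The class II genes, which present peptides from outside the cell, changed in both directions. Of 5 class II genes tested, 1 rose and 4 fell, beside 40.1% of all genes tested called, 20.4% higher and 19.6% lower. H2-Ab1, a class II beta chain, was at 14.6, 8.72 and 12.8 CPM in WT and 2.58, 2.28 and 2.60 CPM in AS replicates 1 to 3 (log2FC -2.28, adjusted p = 2.28e-05, edgeR). H2-Eb1, the other beta chain, was at 8.72, 4.32 and 4.14 CPM in WT and 17.4, 11.1 and 14.2 CPM in AS replicates 1 to 3 (1.31, adjusted p = 0.00476, edgeR). The groups did not overlap for either chain, and both chains differ between haplotypes. The invariant chain Cd74 fell from 2.62 ± 0.371 to 0.840 ± 0.532 CPM and the loading factors H2-DMa (-0.55) and H2-DMb1 (-0.59) fell, though H2-DMa lost its call when WT replicate 3 (-0.39) or AS replicate 2 (-0.51) was left out (adjusted p-values 0.0545 and 0.0556, edgeR), while the alpha chain H2-Aa did not exceed 0.217 CPM.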

How the data were processed

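mRNA was sequenced from podocytes of a WT and an AS line, 3 samples each, grouped by the labels' genotype. Libraries were prepared from mRNA with 15 cycles of PCR. Per the labels, the submitters' processing notes name FastQC, Trim Galore, STAR, edgeR and the build mm39. No source used here gives the counting tool or its use of strand. The authors deposited raw counts of reads per gene. Of 57132 identifiers, 51880 matched GENCODE M21 (GRCm38), which served for names, chromosome, order and transcript lengths; no coordinates were converted.

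Counts were analysed with edgeR 4.0.16 in R 4.3.3 (filterByExpr, minimum count 10, minimum total count 15, TMM, quasi-likelihood test, genotype as the only term, Benjamini-Hochberg over all genes). Standard errors (SE) were obtained as the absolute log2FC over the root of F, an approximation. CPM use TMM-scaled library sizes, and RPKM are these per kilobase of the principal transcript. Single values were compared by exact permutation tests, two-sided. DESeq2 1.42.0 and limma 3.58.1 (voom) were alternatives. Scripts were tested on simulated data. No sample values were left out. Counting error alone is covered by limits of detection, and with 3 samples a line single outlying samples were not tested.

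A few items of the lists are not reported here. The genes and lists were chosen with earlier results of these data known. Named in the text are the 10 genes, the constitutive catalytic subunits, H2-T23, Irf1, Rfx5, Psme1, Psme2, Col4a3 and, of each other list, every called gene where 5 or fewer were called, otherwise the 3 with the smallest adjusted p in each direction. H2-Q4, H2-Q7, Socs1, Ciita, H2-Aa, Irf2, Stat2, Atf1, Rela, Cd3e, Adgre1, Ptprc, Lrp2, Cubn, Slc34a1, Slc22a6 and Umod were added after their values were seen. The markers of endothelium (0 of 5 tested) and tubule (2 of 5 tested, 0 called) were also examined.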

Additional observations from a re-analysis of the deposited data

How the results depend on the processing

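Between 5120 genes (without AS replicate 3) and 7066 genes (with the replicate block) passed in AS over WT, and 1818 did when a fold change over 2 was also required, among them 0 of the 10 class I genes. The number of the 10 that passed ran from 2 to 5 with 1 sample left out, and was 4 with no filter on low counts (Nlrc5, adjusted p = 0.00107, edgeR). Whether the replicate numbers pair the samples is not settled: deviations of same-numbered samples correlated at 0.284, 0.160 and 0.0801 over all genes tested and at 0.481, 0.303 and 0.148 over genes with a mean log2 CPM over 3, and WT replicate 3 correlated better with AS replicate 2 on both (0.139 and 0.281). With the replicate block 4 of the 10 passed, Nlrc5 being added (0.53, adjusted p = 0.0275, edgeR). No other call among the 10 changed with the block.

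With 1 sample left out, log2 fold changes ran from -0.42 to 0.22 for H2-K1 (0.22 without WT replicate 1), from -0.012 to 0.68 for H2-D1 (-0.012 without WT replicate 2), from -0.11 to 0.20 for B2m (below 0 in 4 of these fits: -0.11, -0.065, -0.036 and -0.036), from -0.16 to 0.012 for Tap2 (0.012 without WT replicate 1), from -0.0096 to 0.37 for Psmb8 (-0.0096 without WT replicate 2, -0.0055 without AS replicate 3) and from 0.26 to 0.91 for Nlrc5. B2m was also below 0 with RLE size factors (-0.0045), at a mean CPM of at least 1 (-0.0018) and in DESeq2 (-0.0044). The difference in the Psmb8 share ran from -0.28 to 3.08 percentage points (-0.28 without AS replicate 3, -0.046 without WT replicate 2), and the log2 ratio of the summed heavy chains from -0.18 to 0.49 (-0.18, -0.11, -0.033 and -0.047 without WT replicate 2, WT replicate 3, AS replicate 1 and AS replicate 3). With exon-union lengths, an alternative chosen after seeing the data, the Psmb10 share differed by 6.03 percentage points. The cause was not tested in any of these cases. Rfx5 ran from -0.056 (without WT replicate 2) to 0.092 and Psmb5 from -0.062 (without AS replicate 2) to 0.064. With the chromosome median removed, Psmc2 turned to -0.0044 and Psmd7 to -0.18. Of 150 values of the 10 genes under alternatives, 129 stayed the same, and of 748 values of 50 other named genes 676 did. This meant the same direction and side of the threshold. With the chromosome median removed, which gives no adjusted p, it meant a shift smaller than the pooled SD within lines. Tapbp is the call of the 10 that depends most on the samples kept. Levels under 3 counts a sample (0.0545 to 0.0666 CPM) could not be told from 0 at this depth.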

Other observations

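The proteasome degrades proteins in every cell. Of 11 tested structural subunits of the 20S core, 0 rose and 1 fell (9.09%, beside 40.1% of all genes tested): Psmb2, from 88.1 ± 3.96 CPM in WT to 72.6 ± 2.46 CPM in AS podocytes (SD, n = 3 each; log2 fold change -0.28, adjusted p = 0.00384, edgeR's quasi-likelihood test). Of 18 subunits of the 19S cap, which recognises ubiquitin-tagged proteins, 2 rose and 4 fell (33.3%), beside 40.1% of all genes tested. The ATPase Psmc2 rose from 110 ± 2.26 to 126 ± 2.46 CPM and Psmd7 from 137 ± 3.89 to 151 ± 1.54 CPM. The ubiquitin receptor Psmd4 fell from 141 ± 1.87 to 113 ± 4.96 CPM, the ATPase Psmc4 from 130 ± 1.34 to 105 ± 5.98 CPM and Psmd12 from 91.5 ± 2.21 to 80.4 ± 4.04 CPM. Without 1 sample, Psmd7 passed in 0 of 6 fits (adjusted p-values from 0.0725 to 0.145, edgeR), Psmd12 not without WT replicate 3, AS replicate 1 or AS replicate 3 (-0.19, -0.16 and -0.18) and Psmc2 not without AS replicate 2 (0.18, adjusted p = 0.0529, edgeR). With the chromosome median removed Psmb2 was at -0.12, Psmc2 at -0.0044 and Psmd7 at -0.18. The median log2 fold change was -0.10 for the core list and -0.08 for the cap list, against 0.20 for the 10 class I genes and 0.01 for all genes tested.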
